A study of Caenorhabditis elegans with 9 samples.

Results

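The comparison described here sets ATF-4OE animals, which overexpress the transcription factor ATF-4, against the deletion mutant *atf-4(tm4397)*, at the ends of the range of *atf-4* dose in a *C. elegans* series. It rests on 6 of the 9 RNA-seq libraries, 3 of each genotype, and the 3 libraries of the wild type N2 (WT) show the level at the normal dose. ATF-4OE carries *ldIs119*, a transgene integrated by UV, in which the genomic *atf-4* sequence fused to GFP is driven by the *atf-4* promoter and followed by the *unc-54* 3′ UTR. The same array holds the roller marker *rol-6(su1006)*, a dominant allele of a cuticle collagen gene, and the animals keep their own *atf-4*. This overexpressor is 1 integrated line, so that effects of the marker, of the insertion site and of the strain cannot be told apart from those of ATF-4. In *atf-4(tm4397)* (strain LD1325) the deletion removes the start codon, the first exon and part of the upstream open reading frames, and the allele is taken to be null. Both strains had been outcrossed to N2. Each library holds poly(A) RNA of about 20000 whole animals at the L4 larval stage, raised at 20 °C on OP50 bacteria, and each replicate comprised the genotypes raised side by side.

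ATF4 is a bZIP transcription factor whose mRNA is translated more when general translation is held back. When eIF2 is phosphorylated in the integrated stress response, ribosomes skip the last upstream open reading frame and make more ATF4. In mammals it is known for activating genes of amino acid uptake and synthesis, aminoacyl-tRNA synthetases, glutathione metabolism and the transsulfuration of homocysteine to cysteine, which also yields hydrogen sulfide. The *C. elegans* gene *atf-4*, formerly called *atf-5*, is its ortholog and has been linked to lifespan and to reduced translation.

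The level of *atf-4* itself checks the labels. It was 5289, 4184 and 6845 ppm in ATF-4OE replicates 1, 2 and 3, 3.81, 3.69 and 9.31 ppm in the mutant and 199.6, 167.7 and 214.5 ppm in WT, where a ppm is a gene's part of a library whose levels sum to 1000000. The groups were far apart in the order of the labels. The marker *rol-6* was at 4449, 3019 and 3943 ppm in ATF-4OE and between 572 and 1379 ppm in the other 6 libraries. These genes and their neighbours within 5 kb, 8 genes in all, were left out of every test. Genotypes follow the sheet of centred and scaled values. A second sheet of the same 9 libraries puts 6 of them under another genotype, whereas a short sheet of regulated genes puts all 9 under the genotypes used here. Under the names of that other sheet limma called 0 of 11322 genes at an adjusted p under 0.1, and 412 of them (3.64%) had an unadjusted p under 0.05. Depth was 23.8 to 35.1 M reads per library. Mutant replicate 2 stood apart from the other mutant libraries in its sperm and germline genes, and the results that rest on it are given with and without it.

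Genes differed in both directions, and which direction held more of them depended on the scale and on single libraries. Of 11280 genes that reached 5 ppm in any library, 2227 (19.7%) were higher and 1554 (13.8%) lower than in the mutant at an adjusted p under 0.1 (limma on log2(ppm + 1), Benjamini-Hochberg); these genes are said to pass the test. With a log2 fold change beyond 1 as well, 978 genes (8.67%) were called, 688 (6.1%) as higher and 290 (2.57%) as lower, 70.3% of the called genes being higher. The median log2 fold change of all tested genes was -0.03 and the median standard error 0.17. A difference of 4-fold or more was estimated for 110 genes called higher and for 18 called lower. In 686 and 275 of the called genes the 3 libraries of one genotype lay wholly above the 3 of the other, as they did in 22.3% of all tested genes with ATF-4OE on top and in 16.8% with the mutant on top. Tested on the deposited scores instead, without a fold limit, 614 genes were higher and 665 lower (limma). Without mutant replicate 1, 2068 passed as higher and 2107 as lower, and without mutant replicate 2, 1740 and 764. The count called lower was 179 without mutant replicate 2 and 498 without mutant replicate 1. Without ATF-4OE replicate 1, 1473 passed as higher and 866 as lower, and without ATF-4OE replicates 2 and 3, 1027 and 1016 passed as lower. With 3 libraries a genotype the p-values measure the spread between these separately grown cultures.

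**Figure D1:**
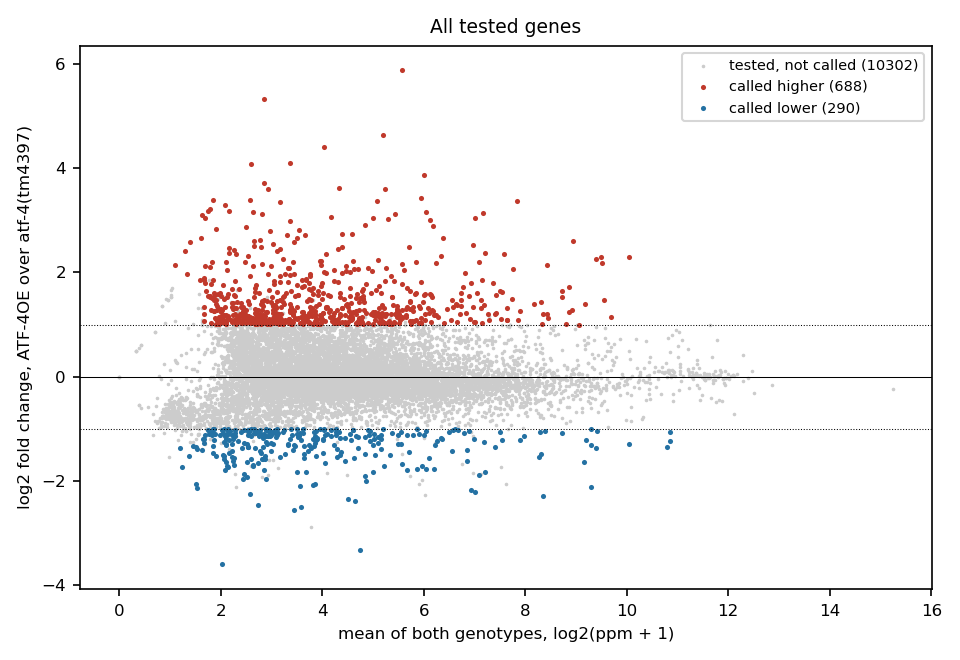
Log2 fold change of ATF-4OE over *atf-4(tm4397)* (vertical axis) against the mean level of both genotypes in log2(ppm + 1) (horizontal axis), 1 point per tested gene. The 688 genes called higher (red) reach further from 0 than the 290 called lower (blue), and the dotted lines mark the fold limit.

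The genes that led the comparison in ATF-4OE were *srlf-34*, *C27B7.9*, *far-3*, *C45B2.1*, *Y49F6B.12*, *fip-1*, *nlp-34*, *Y68A4A.13*, *F45E4.5*, *C08E3.1*, *F22F7.7* and *cnc-4*. The level of *srlf-34* (chromosome II, 10312293 to 10312943, plus strand) was 432, 399.7 and 276 ppm in ATF-4OE and 5.71, 4.56 and 5.20 ppm in the mutant. Its log2 fold change was 5.89 (SE 0.19, limma adjusted p = 1.49e-06), and WT, at 4.97, 4.76 and 3.36 ppm, lay beside the mutant. For *C27B7.9* (chromosome IV, 8915472 to 8916110, minus strand) the ATF-4OE libraries held 45.9, 56.8 and 34.1 ppm. The mutant was close to 0 there, at 0.0966, 0.178 and 0.103 ppm, and the log2 fold change of 5.34 became 3.56 with a pseudocount of 4. *far-3*, of the fatty acid and retinol binding proteins that nematodes secrete, was at 213, 178 and 144 ppm against 7.72, 8.88 and 3.14 ppm (log2 fold change 4.64, SE 0.39, limma adjusted p = 0.000259). Its lowest ATF-4OE library was far above its highest mutant library. Among the 15 tested genes for fatty acid and retinol binding or lipid binding proteins 7 were higher and 1 lower (median log2 fold change 0.62).

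The genes that led in the other direction were *spp-21*, *dod-24*, *gba-4*, *drd-1*, *Y38H6C.23*, *papl-1*, *aagr-1*, *cpr-4*, *F09C8.1*, *C17H12.8*, *lipl-5* and *asp-17*. Several encode hydrolases, such as the glucocerebrosidase homolog *gba-4*, the acid alpha-glucosidase homolog *aagr-1*, the cathepsin B-like *cpr-4*, the lysosomal lipase *lipl-5* and the aspartyl protease *asp-17*. *spp-21*, a saposin-like protein gene, was at 12.8, 16.9 and 10.1 ppm in the mutant, at 0.168 and 0.294 ppm in ATF-4OE replicates 2 and 3, and listed at 0 in ATF-4OE replicate 1 and in all 3 WT libraries. The mutant therefore stood apart from both other genotypes. *dod-24*, a gene downstream of DAF-16 that responds to infection, was at 3.98, 18.7 and 2.14 ppm in ATF-4OE and 82.7, 117 and 31.8 ppm in the mutant (log2 fold change -3.34, SE 0.67, limma adjusted p = 0.00792). Its libraries did not overlap but varied most among these 12 genes. *drd-1* varied little, at 3.88, 4.13 and 3.95 ppm against 22.3, 27.5 and 32.8 ppm (log2 fold change -2.50, SE 0.14, limma adjusted p = 4.03e-05), with WT at 18.9, 17.8 and 20.6 ppm.

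**Figure D2:**
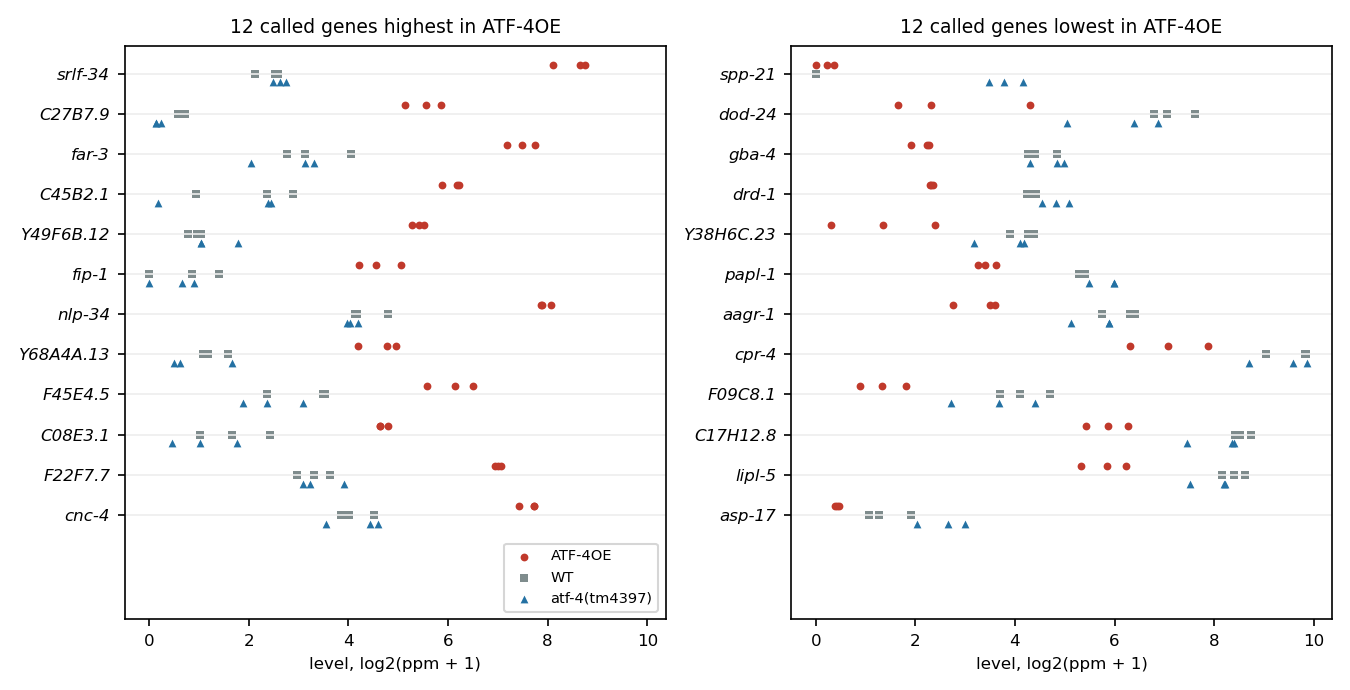
Level in log2(ppm + 1) (horizontal axis) of the 12 called genes with the largest log2 fold change in each direction, 1 point per library for ATF-4OE (red circles), WT (grey squares) and *atf-4(tm4397)* (blue triangles). For most of these genes the WT points lie beside those of the mutant, and for *spp-21* they lie with ATF-4OE.

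Orthologs of mammalian ATF4 targets that the study lists were higher in ATF-4OE in 7 of 8 cases (median log2 fold change 0.98), but the study chose this list on these samples, so that the count is not independent evidence of a direction. *F22F7.7*, the ortholog of CHAC1, a gamma-glutamylcyclotransferase that degrades glutathione, was at 128, 121.9 and 133 ppm in ATF-4OE and 7.46, 8.42 and 14.02 ppm in the mutant. The log2 fold change was 3.60 (SE 0.23, limma adjusted p = 5.77e-05). *C02D5.4*, a glutathione transferase of the omega class, was at 360.3, 455 and 479 ppm against 89.7, 80.1 and 78.6 ppm (log2 fold change 2.36, limma adjusted p = 5.14e-05). Both genes held nearly the same level in the mutant and in WT. For *cth-2*, a cystathionine gamma-lyase of the transsulfuration pathway, ATF-4OE held 286, 289 and 293 ppm and the mutant 169, 173 and 104.96 ppm. Its log2 fold change of 0.99 passed the test (limma adjusted p = 0.0145) just short of the fold limit. The exception of the list was the glutamate transporter *glt-1* (log2 fold change 0.41, limma adjusted p = 0.133). Galectins, sugar-binding proteins to which *lec-2*, *lec-4* and *lec-5* of this list belong, passed as higher in 6 of 12 cases and as lower in none (4 lower without mutant replicate 3).

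Genes of amino acid metabolism did not move one way. Over all tested genes 19.7% passed as higher and 13.8% as lower. Amino acid transporters were higher in 10 of 20 and lower in 3 (median log2 fold change 0.44). The light-chain transporter *aat-7* was at 17.5, 19.3 and 21.8 ppm in ATF-4OE, 2.53, 2.07 and 1.35 ppm in the mutant and 3.67, 3.47 and 3.58 ppm in WT. Its relative *aat-8* was at 22.6, 28.9 and 30.9 ppm, 0.974, 2.64 and 1.89 ppm and 3.101, 3.34 and 6.58 ppm in the same order. In both transporter genes the WT libraries lay wholly between those of the other genotypes (log2 fold changes of ATF-4OE over the mutant 2.80 and 3.36, limma adjusted p = 5.77e-05 and 0.000293). Aminoacyl-tRNA synthetases, which charge tRNAs with amino acids and are ATF4 targets in mammals, were higher in 0 of 32 and lower in 14 (median -0.27). Differences were small even for *tars-1*, the threonyl-tRNA synthetase with the smallest p of this list, which was at 138, 119.9 and 132 ppm against 172, 187 and 187 ppm (log2 fold change -0.49, limma adjusted p = 0.00593). With the replicate number as a block 9 of the 32 passed, and 9, 5 and 7 without ATF-4OE replicates 1, 2 and 3, and 4 and 6 without mutant replicates 2 and 3. Of 19 genes of amino acid synthesis 3 were higher and 7 lower. One of the 3, chosen after its values were seen, is asparagine synthetase *asns-1*, an ATF4 target in mammals, at 22.1, 15.9 and 17.7 ppm against 9.96, 8.80 and 16.1 ppm (log2 fold change 0.66, limma adjusted p = 0.0829), with libraries that overlapped. Instead of 3, 1 was higher with the block, without any one ATF-4OE library, without WT replicate 1 or without mutant replicate 2, and the 7 became 4 without any one ATF-4OE library and 3 without mutant replicate 2. In transsulfuration and hydrogen sulfide metabolism 3 of 16 genes were higher and 4 lower (2 lower without ATF-4OE replicate 1). The higher shares of this list and of amino acid synthesis were no larger than that of all tested genes. With all libraries their lower shares were larger. The mercaptopyruvate sulfurtransferase *mpst-7* was at 61.5, 49.04 and 46.5 ppm against 27.004, 21.7 and 26.1 ppm, and the cyanoalanine synthase *cysl-2* at 66.2, 59.6 and 71.1 ppm against 110.2, 135 and 163 ppm. The 4 of 12 glutathione genes that passed were all higher, while the median log2 fold change of the 12 was 0.06. They included the glutathione reductase *gsr-1* (log2 fold change 0.43) and *F22F7.7*. The latter is also on the ortholog list that the study chose on these samples, so these counts are not independent.

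The propionate shunt breaks propionate down without vitamin B12, and all 5 of its genes passed as lower (median log2 fold change -1.36, where all tested genes had -0.03). *acdh-1*, the acyl-CoA dehydrogenase of its first step, was at 882, 1290.1 and 1189 ppm in ATF-4OE and 2865, 2897 and 2738 ppm in the mutant, and *hach-1*, its hydroxyacyl-CoA hydrolase, at 161, 200.4 and 178 ppm and 538, 519 and 517 ppm. The hydrolase had a log2 fold change of -1.54 (SE 0.09, limma adjusted p = 5.76e-05), and in neither gene did the genotypes overlap. Of the 6 genes of the B12-dependent pathway 1 was higher and 1 lower, and the higher one did not pass without any one ATF-4OE library or without mutant replicate 2 (2 were higher without mutant replicate 3). Among 22 genes of the methionine and folate cycles and of phosphatidylcholine synthesis 10 were lower, 12 did not pass and 0 were higher (median -0.38). These 10 include methionine synthase *metr-1* (175, 212 and 259.7 ppm against 380.3, 455 and 516 ppm) and its reductase *mtrr-1* (71.7, 109 and 99.8 ppm against 204, 258 and 209 ppm). Log2 fold changes were -1.07 and -1.26 (limma adjusted p = 0.00233 and 0.0015). *nhr-114*, a nuclear receptor known in *C. elegans* to control genes of the methionine cycle, was at 149.8, 173 and 184 ppm against 389.7, 365 and 363 ppm. Its SE was 0.10 around a log2 fold change of -1.14.

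Epidermal antimicrobial peptide genes, which the worm's skin expresses on fungal infection or wounding, were mostly higher in ATF-4OE. All 9 *nlp* genes of this kind passed (median log2 fold change 1.99), 6 of which (*nlp-34*, *nlp-31*, *nlp-30*, *nlp-29*, *nlp-28* and *nlp-27*) lie side by side on chromosome V between 3978825 and 3989770. *nlp-34* was at 268, 236 and 231 ppm in ATF-4OE and 14.6, 17.3 and 15.4 ppm in the mutant, and *nlp-29* at 473, 453 and 359 ppm and 52.6, 41.1 and 48.6 ppm. Their log2 fold changes were 3.87 and 3.15 (SE 0.17 and 0.18, limma adjusted p = 1.05e-05 and 5.06e-05). Caenacins, a second family of such peptides, were higher in 6 of 6 cases tested, of 8 measured (median 2.32). *cnc-4* was at 210.5, 171 and 210.4 ppm against 10.6, 23.1 and 20.7 ppm. Of 16 fungus-induced protein genes 7 were higher and none lower, and 4 were higher without ATF-4OE replicate 1. WT lay beside the mutant in *nlp-29*, at 45.5, 43.9 and 29.4 ppm, and in *nlp-34*, at 16.6, 26.7 and 16.9 ppm. The marker *rol-6*, carried by the transgene array, was higher in ATF-4OE as well, and its part in these differences was not tested.

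The cuticle showed a mixed picture. Cuticle collagens named *col* were higher in 39 of 102 and lower in 1, or in 6 and 3 without mutant replicates 1 and 3 and 2 without WT replicate 1 (median log2 fold change 0.59), with *col-101* at 15.8, 12.4 and 14.4 ppm in ATF-4OE and 1.87, 2.28 and 0.632 ppm in the mutant. None of the 6 furrow collagens, whose loss is known to switch on epidermal antimicrobial genes, passed the test (limma, median -0.18, 0 also at an unadjusted p under 0.05). Of the 11 other collagens that set body shape, 0 were higher and 2 lower (4 lower without mutant replicate 3). They were *lon-3*, at 212, 195 and 159 ppm against 499.7, 478 and 604 ppm, and *dpy-17*, at 4.42, 2.94 and 4.003 ppm against 9.37, 11.7 and 15.1 ppm. Among the secreted and matrix enzymes, astacin and matrix metalloprotease genes were higher in 15 of 32 and lower in 1 (0 lower without any one ATF-4OE or mutant library, 2 without WT replicate 1). Hedgehog-related ligands of the epidermis were higher in 6 of 31 and lower in 3, shares no larger than the 19.7% and 13.8% of all tested genes, led by *grl-21* at 207, 195 and 180.4 ppm against 26.3, 20.97 and 16.43 ppm. Without WT replicate 2 10 ligands were higher, and without ATF-4OE replicates 1, 2 and 3 and mutant replicates 2 and 3 the 3 lower became 1, 0, 0, 1 and 0. Moulting and apical matrix genes passed as higher in 1 and as lower in 2 of 24 cases, and in 1 or 2 in each direction with any one library left out. Their summed level was 3381 to 4721 ppm in ATF-4OE, 4023 to 5623 ppm in the mutant and 2512 to 3755 ppm in WT. Such a sum cannot show whether the libraries were at the same phase of the moulting cycle, which was not tested.

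Neuronal genes were broadly higher in ATF-4OE. Of 32 genes of synapses and transmitters 27 were higher and none lower (median log2 fold change 0.78), and 17 passed without ATF-4OE replicate 1. *unc-25*, the glutamate decarboxylase that makes GABA, was at 76.0, 61.9 and 70.3 ppm in ATF-4OE, 21.997, 20.6 and 27.8 ppm in the mutant and 20.9, 19.4 and 17.1 ppm in WT. The log2 fold change was 1.53 (SE 0.14, limma adjusted p = 0.000349). The synaptic vesicle genes *snt-1*, *rab-3* and *sng-1* were near a 2-fold difference as well, with log2 fold changes of 1.09, 1.01 and 1.099. Neuropeptide genes followed, with 34 of 47 neuronal *nlp* genes higher (median 0.98) and 19 of 30 FMRFamide-like peptide genes (median 0.75), and none of either lower. *flp-15* was at 167, 154 and 156 ppm against 79.7, 54.8 and 47.9 ppm (log2 fold change 1.403, limma adjusted p = 0.00115). Of 33 body wall muscle genes 20 were higher and none lower (median 0.48; 2 lower without mutant replicate 1), with smaller differences. The troponin I gene *tni-1* was at 313, 279 and 284 ppm against 164, 133 and 146 ppm (log2 fold change 0.98, SE 0.10, limma adjusted p = 0.000661), and *unc-54* was not counted because the transgene carries its 3′ UTR. In RNA of whole animals more cells of a type and more RNA per cell cannot be told apart.

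**Figure D3:**
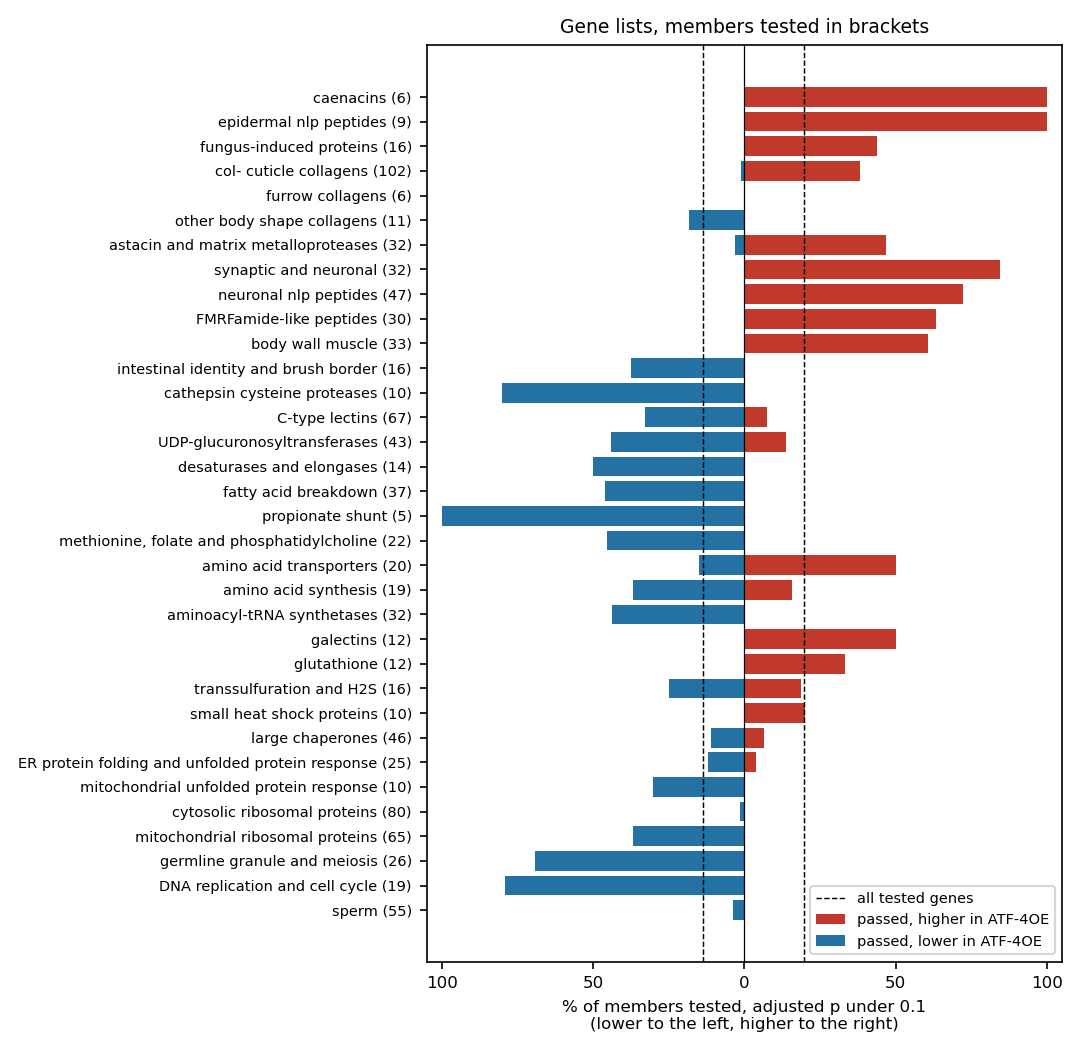
Share of tested members of each gene list that passed the test (limma, adjusted p under 0.1) as higher (red, to the right) or lower (blue, to the left) in ATF-4OE than in *atf-4(tm4397)*, with the number of tested members in brackets. Dashed lines mark the shares over all tested genes, 19.7% higher and 13.8% lower. Neuronal, muscle and antimicrobial lists lie beyond the right line. Propionate shunt, cathepsin and germline granule lists lie beyond the left one, and sperm genes do not.

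Among the gene groups of the intestine, cathepsin-type cysteine proteases were lower in 8 of 10 cases and higher in none (median log2 fold change -1.15). *cpr-5* was at 279.8, 379 and 311 ppm in ATF-4OE, 946, 1003 and 1070.5 ppm in the mutant and 717, 567 and 584 ppm in WT, which lay wholly between them (log2 fold change -1.65, SE 0.13, limma adjusted p = 0.000241). Among 16 genes for intestinal identity and brush border 6 were lower, 10 did not pass and none were higher (3 lower without ATF-4OE replicate 1 or without mutant replicate 2). Among these 6 the peptide transporter *pept-1* had the smallest p, at 80.0, 87.4 and 103 ppm against 154, 163 and 159.8 ppm. C-type lectins were lower in 22 of 67 cases and higher in 5, lysozymes and saposin-like proteins lower in 11 of 30 and higher in 7. Fatty acid breakdown genes were lower in 17 of 37 cases and higher in none (median -0.36), and desaturases and elongases in 7 of 14 (4 without ATF-4OE replicate 1). The stearoyl-CoA desaturase *fat-6* was at 125, 148 and 152 ppm against 227, 281 and 247 ppm. Among detoxifying enzymes UDP-glucuronosyltransferases were lower in 19 of 43 cases and higher in 6. Glutathione S-transferases were lower in 9 of 24 and higher in 2, and cytochrome P450s lower in 10 of 33 and higher in 7. In each of these lists the lower share exceeded the 13.8% of all tested genes. The higher share was below the 19.7% of all tested genes in both transferase lists and near it in the P450s. Without ATF-4OE replicate 1 3 UDP-glucuronosyltransferases were higher, as without ATF-4OE replicate 3 or mutant replicate 3, and 4 P450s were higher and 5 lower, with 6 lower without ATF-4OE replicate 3 or mutant replicate 2. The iron store *ftn-1* was higher, at 25.1, 37.3 and 33.1 ppm against 5.79, 9.05 and 4.81 ppm (log2 fold change 2.14, limma adjusted p = 0.0105). It had the highest log2 fold change of 15 tested antioxidant genes, of which 2 were higher and 3 lower (median -0.16). With any one library left out 0 to 3 of them were lower.

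Few genes of protein folding in the endoplasmic reticulum, of the large chaperones and of the proteasome passed the test. Of 25 genes for protein folding in the endoplasmic reticulum and its unfolded protein response 1 was higher and 3 lower, and of 46 large chaperones 3 were higher and 5 lower, shares below those of all tested genes. In the first list 2 were higher without ATF-4OE replicate 2 or mutant replicate 1, and 1 was lower without ATF-4OE replicate 2. In the other list 1 was higher with the replicate block and without any one library other than ATF-4OE replicate 2, 3 were lower with the block and without ATF-4OE replicate 2 or 3, and 11 were lower without mutant replicate 1. The gene that was higher in the endoplasmic reticulum list was *xbp-1*, the transcription factor of that response, at 378, 391 and 396 ppm in ATF-4OE and 268, 271 and 259 ppm in the mutant (log2 fold change 0.54, limma adjusted p = 0.00219). Its target *hsp-4*, the BiP chaperone, was at 227, 273 and 375 ppm and 195, 383 and 233 ppm, so that the libraries overlapped (log2 fold change 0.14, limma adjusted p = 0.741). Neither *hsp-16.2*, induced by heat, nor the cytosolic *hsp-70* passed, with log2 fold changes of -0.15 and -0.28 and SEs of 0.39 and 0.46. Of 10 small heat shock proteins 2 were higher, near the 19.7% of all tested genes, *hsp-43* (log2 fold change 1.29) among them, and 0 lower (limma; 1 lower without ATF-4OE replicate 2 and 2 without mutant replicate 3). The mitochondrial chaperonin *hsp-60* was lower, at 514, 491 and 524 ppm against 741, 683 and 913 ppm (log2 fold change -0.60, limma adjusted p = 0.0126). It is one of 3 genes lower of the 10 of the mitochondrial unfolded protein response, a share above the 13.8% of all tested genes. Of 33 proteasome genes 2 were lower, and of 80 cytosolic ribosomal protein genes 1, against 13.8% of all genes. The 2 became 0 with the block and without any one ATF-4OE library or mutant replicate 2 or 3, 1 without WT replicate 1 or 3 and 5 without mutant replicate 1, while the ribosomal 1 became 0 without ATF-4OE replicate 1 or 3, and 3 ribosomal genes were higher without mutant replicate 1. Mitochondrial ribosomal protein genes were lower in 24 of 65 cases (median -0.20), with all libraries also a share above the 13.8%. With the replicate number as a block 13 passed, 8 without ATF-4OE replicate 1 or 3, and 10 and 12 without mutant replicates 2 and 3. Translation factors were lower in 7 of 38 cases, but in 1 with the block, 4, 1 and 1 without ATF-4OE replicates 1, 2 and 3, 12, 1 and 2 without mutant replicates 1, 2 and 3 and 3, 3 and 4 without WT replicates 1, 2 and 3.

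With all libraries in the fit, most tested genes of DNA replication and of germline granules and meiosis were lower in ATF-4OE. The libraries also differed in markers of germline progress. DNA replication and cell cycle genes were lower in 15 of 19 cases (median log2 fold change -0.62), with *mcm-5*, a subunit of the replicative helicase, at 21.1, 18.05 and 19.2 ppm in ATF-4OE, 27.8, 29.4 and 35.9 ppm in the mutant and 28.8, 22.7 and 24.2 ppm in WT. Between 11 and 16 of the 19 passed when any one library was left out. Germline granule and meiosis genes were lower in 18 of 26 cases (median -0.95). For *glh-1*, a helicase of germline granules, ATF-4OE held 52.7, 48.3 and 51.5 ppm, close together, and the mutant 64.8, 178 and 134 ppm, far apart (log2 fold change -1.17, SE 0.30, limma adjusted p = 0.0208). *pgl-1*, another granule component, had the same spread, at 21.7, 18.3 and 19.6 ppm against 25.6, 86.955 and 53.5 ppm. The summed level of this list was 407, 999 and 717 ppm in mutant replicates 1, 2 and 3 and 358 to 376 ppm in ATF-4OE. Without mutant replicate 2 the 18 became 6, without mutant replicate 3 they became 9, without mutant replicate 1 25, and without ATF-4OE replicates 1, 2 and 3 they became 7, 11 and 9. Sperm genes, which L4 hermaphrodites switch on as the germline matures, summed to 837 ppm in mutant replicate 2, 77.6 and 101 ppm in mutant replicates 1 and 3, 71.4 to 122.1 ppm in ATF-4OE and 80.0 to 511 ppm in WT. Of 55 sperm genes 0 were higher and 2 lower (limma), 1 with the block, and 0 without ATF-4OE replicate 1 or 3 or mutant replicate 2. Of 11 oocyte and eggshell genes 1 was higher and 2 lower, and 0 to 7 were lower with any one library left out. The 4 vitellogenin genes, whose yolk proteins the intestine makes for oocytes, did not pass the test (limma; 0 also at an unadjusted p under 0.05, and 3 passed as lower without mutant replicate 3) and summed to 3.46, 5.85 and 9.67 ppm in ATF-4OE, to 64.9, 199.6 and 2.94 ppm in the mutant and to between 15.3 and 343 ppm in WT. The part of developmental timing in the germline results was not tested.

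**Figure D4:**
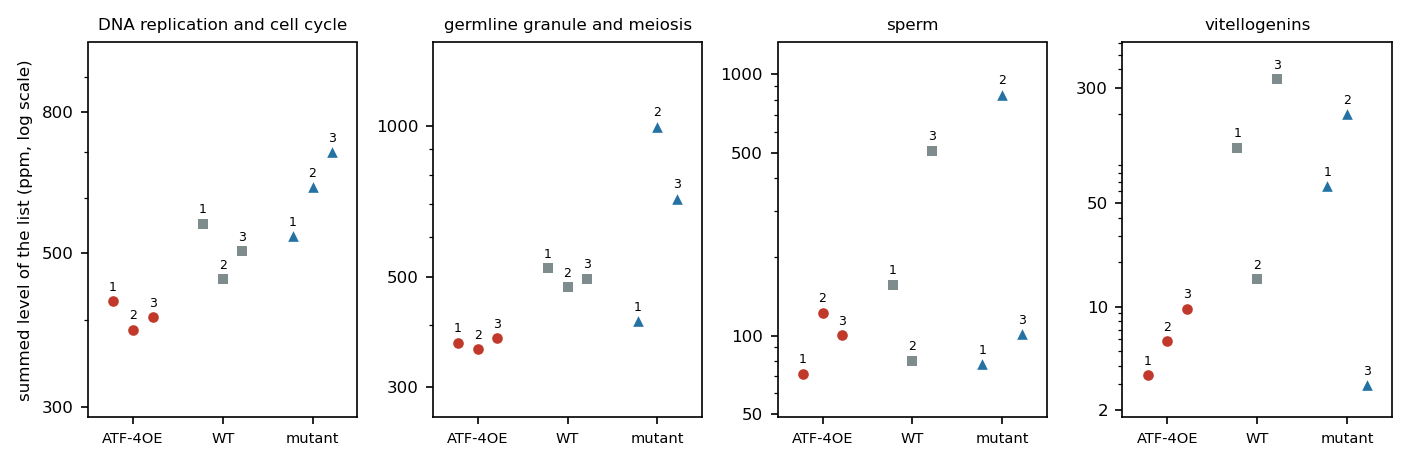
Summed level in ppm (vertical axes, log scale) of DNA replication, germline, sperm and vitellogenin genes in each library, with the replicate number above its point. ATF-4OE libraries (red circles) lie close together, while mutant replicate 2 (blue triangle) is the highest of all 9 libraries for germline genes (999 ppm) and for sperm genes (837 ppm).

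In the levels of the called genes WT lay close to the mutant. The position of WT was taken as its mean log2 level, with 0 at the mutant mean and 1 at the ATF-4OE mean. For genes called higher the median position was 0.10 (interquartile range -0.06 to 0.24), and WT was nearer to the mutant in 657 of 688 genes (95.5%). For genes called lower the median was 0.19 (-0.13 to 0.46), and WT was nearer to the mutant in 225 of 290 (77.6%). Each WT library on its own gave a median position of 0.06, 0.21 and -0.01 for the genes called higher, and of 0.20, 0.20 and 0.14 for those called lower. In 47 genes called higher and 21 called lower all 3 WT libraries lay between those of the mutant and of ATF-4OE. They did so in 1.52% of all tested genes. That share is no baseline for the called genes, which were chosen for a difference between ATF-4OE and the mutant. Examples are *aat-7*, *aat-8* and *cpr-5* with the values given above, *drd-1*, *hach-1* and *C27B7.9*, the last at 0.643, 0.619 and 0.485 ppm in WT. None of these examples passed the test between the mutant and WT (limma adjusted p from 0.46 to 0.61). The hemoglobin-like *glb-1*, chosen after its values were seen, was at 11.3, 10.3 and 9.28 ppm in ATF-4OE, 4.76, 6.20 and 5.02 ppm in WT and 4.397, 4.49 and 3.90 ppm in the mutant. ATF-4OE against WT called 1009 genes (8.95%) and the mutant against WT 4 (0.0355%), all with the same 3 WT libraries, by the same fit. WT and mutant libraries did not overlap in 14.1% of the tested genes.

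**Figure D5:**
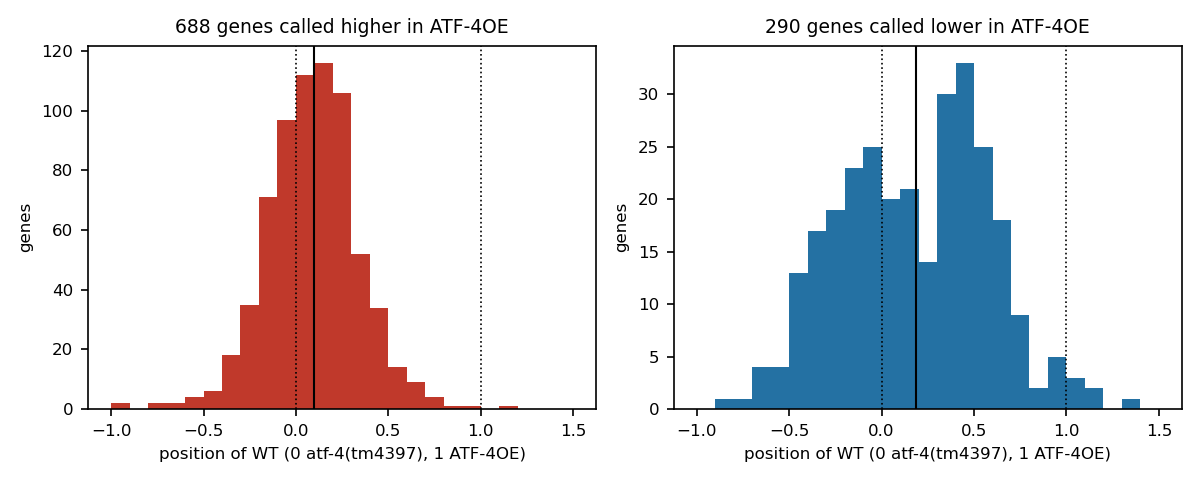
Number of genes (vertical axes) by position of WT between the mutant mean (0) and the ATF-4OE mean (1), for the 688 genes called higher and the 290 called lower in ATF-4OE. The solid line marks the median, 0.10 and 0.19, and most genes lie left of 0.5, nearer to the mutant.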

How the data were processed

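Poly(A) RNA of 9 L4 cultures of *C. elegans* (WT, *atf-4(tm4397)* and ATF-4OE, 3 each) was sequenced in 1 lane. Per the labels and the paper, the authors aligned to WBcel235 with STAR 2.4.0j, took gene counts from featureCounts, left out transcripts below 1 CPM and computed RPKM. The deposited RPKM sheet (46748 genes) and the deposited sheet of scores (14218 genes), which the authors made by centring and scaling each library's RPKM, hold the same 9 libraries (largest deviation 4.99e-07) under different names, 3 with the same genotype. A deposited sheet of scores for 39 regulated genes puts all 9 libraries in the genotypes of the score sheet, whose names were used. Another deposited sheet holds p-values of annotation terms from the authors' own analysis and was not used. Depth (23.8 to 35.1 M reads, median 27.5) was read from the steps of the RPKM values, 40.5 to 50.1% of which were whole within 0.02 read, so read counts were not recovered, and effects on low genes are less precise.

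Each library's score minus its minimum was scaled to a sum of 1000000 (ppm). Genes with at least 5 ppm in 1 library were tested with limma 3.58.1 (R 4.3.3) on log2(ppm + 1), all 9 libraries in 1 fit with a mean-variance trend and no block, two-sided, with Benjamini-Hochberg adjustment over 11280 genes. A fold change on this scale understates the change of low genes. With 3 against 3 libraries an exact permutation test cannot go below 0.1. Scripts were tested on simulated data. Alternatives were other pseudocounts (4 and 0.25), no floor, a floor of 5 ppm on the mean level, median ratio scaling and the scores themselves. Others were library weights, only the 6 libraries of the contrast, the RPKM sheet's names, a replicate block and leaving out each library.

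Genotypes of a replicate were grown together per the labels, and a block on the replicate number was fitted on that ground. Deviations of libraries of the same number (1, 2 and 3) from their group means correlated at -0.08, 0.31 and -0.09 between mutant and ATF-4OE and at 0.26, -0.68 and -0.62 between WT and mutant. With mutant replicates 2 and 3 exchanged the latter pair came to 0.68 and 0.76, and the mutant and ATF-4OE pair to -0.48 and 0.18. The numbers of mutant replicates 2 and 3 are therefore uncertain, and both pairings were fitted.

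The libraries, the 61 gene lists and the rules were chosen with earlier results of these data known. Lists are described by counts and medians. Genes were named by a rule: the 12 with the largest log2 fold change in each direction, called and with libraries that do not overlap, up to 4 members of each list with the smallest adjusted p, every gene that the paper names in its account of the RNA-seq, and the 8 called genes with the largest change among those with WT nearer to ATF-4OE and apart from the mutant. Others are said to be chosen after their values were seen, or stand in the text only as examples of a count. Names and coordinates came from Ensembl release 115 (WBcel235), which holds 14092 of the 14218 IDs. Promoter sequences were not analysed here. Python 3.11.15 (numpy 2.4.6, pandas 2.3.3) made the tables and matplotlib 3.10.9 the figures.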

Additional observations from a re-analysis of the deposited data

How the results depend on the processing

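Of the 262 genes named by the rule 218 passed the test. None of these 218 changed sign under the 18 alternatives run for single genes, and 195 passed under every alternative that kept them. A floor of 5 ppm on the mean level left some of the named genes out. The balance of the directions turned on the scores and without mutant replicate 1 (2068 passed higher against 2107 lower). Without mutant replicate 2 the median log2 fold change went from -0.79 to 0.34 for sperm genes, from -0.55 to 0.74 for adenine nucleotide translocases and from -0.13 to 0.75 for the genes the paper names; 6 other lists with medians within 0.1 of 0 also changed sign without 1 library. Counts of genes moved more. With a pseudocount of 4, 364 genes were called higher and 137 lower. With the scores in place of ppm, and so without a fold limit, 614 were higher and 665 lower. Library weights gave 528 genes called lower and 2373 passed lower. The RPKM sheet's names gave 0 in each direction, called or passed (limma; 412 genes at an unadjusted p under 0.05). When 1 library was left out in turn, called higher ranged from 575 to 776, called lower from 179 to 498, passed higher from 1473 to 2202 and passed lower from 764 to 2107, lowest without ATF-4OE replicate 1 for passed higher and without mutant replicate 2 for both lower counts. The cause was not tested. The median WT position of called genes was 0.0086 with WT replicate 3 alone. With the replicate block 677 genes were called higher and 270 lower, and 1939 passed higher and 1120 lower; with mutant replicates 2 and 3 exchanged, as another sheet numbers them, the pairing gave 692 and 294 called. Of the called genes 68.0% were higher under median ratio scaling, which moved the median of all genes from -0.03 to -0.06. Levels near 0 have little support, and a fold change there depends on the pseudocount.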

Other observations

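Gene families that share a name prefix were counted across the whole table, 151 prefixes with at least 8 tested genes, and the ones given here were chosen after their values were seen. Genes named *mec* were higher in ATF-4OE in 11 of 12 tested cases (median log2 fold change 0.70). Two-pore potassium channels named *twk* were higher in 18 of 24 with 1 lower (0.80), and neuropeptide receptors named *npr* in 8 of 11 (0.75). Globin genes, *glb*, were higher in 17 of 19 cases (0.92), ligand-gated ion channels, *lgc*, in 12 of 17 (0.62), and transthyretin-related genes, *ttr*, in 28 of 43 (0.91). No tested member of these 3 families passed the test as lower. Over all tested genes 19.7% passed as higher and 13.8% as lower. With no floor on the level 11 of 16 *mec*, 23 of 32 *twk*, 17 of 34 *npr*, 22 of 30 *glb* and 33 of 48 *ttr* genes passed as higher. Of the *lgc* genes 16 of 32 then passed as higher and 1 as lower. Nucleoporin genes, *npp*, were lower in 11 of 25 cases (median -0.27), and acyl-CoA synthetases, *acs*, were lower in 8 of 16 and higher in 3. No test of a family was made.

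On chromosome V 10.1% of the tested genes were called higher, on X 7.14%, and on I, II, III and IV 3.74, 5.55, 4.64 and 5.23%. The shares called lower were 3.48% on V, 2.004% on X and 2.03, 3.103, 1.87 and 2.54% on I, II, III and IV, and no test of evenness was made.

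The mutant against WT called 4 genes. They are *spp-21*, given above, and *T25C12.3*, *scb-1* and *lido-11*, chosen after their values were seen. *T25C12.3* (chromosome X, 11491087 to 11499999, minus strand) lies 592 bases from *spp-21* (chromosome X, 11490130 to 11490494, plus strand) and was at 108, 113 and 74.0 ppm in the mutant, 596, 491 and 651 ppm in WT and 246, 236 and 409 ppm in ATF-4OE. Its log2 fold change of the mutant over WT was -2.56 (limma adjusted p = 0.0092), opposite to that of its neighbour. *scb-1* was at 33.2, 34.4 and 31.8 ppm in the mutant, 10.1, 10.2 and 15.6 ppm in WT and 10.7, 10.7 and 13.1 ppm in ATF-4OE. For *lido-11* the mutant held 8.06, 7.86 and 7.52 ppm, ATF-4OE 6.59, 5.87 and 6.06 ppm and WT 3.00, 2.98 and 3.66 ppm, so that WT stood apart, and ATF-4OE against the mutant did not pass (log2 fold change -0.30, limma adjusted p = 0.145). The first pair of neighbours lies 3.32 Mb from *atf-4* on the same chromosome.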
